A study of Mus musculus with 16 samples.

Results

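The miRNAs of the imprinted Dlk1-Dio3 locus were examined in small RNA libraries of plasma extracellular vesicles (pEVs) from PS19 and wild-type (WT) mice. The members were chosen by name, as every mature or precursor entry whose miRNA number is one of 52 numbers assigned to the locus, whatever the arm. They made up 96 of the 15159 ncRNAs listed and 96 of the 1247 miRNA entries, with 66 mature and 30 precursor entries. Of the 52 numbers, 47 had an entry, and 5 (miR-299b, miR-432, miR-654, miR-1193 and miR-1197) had none. The label was checked against the annotation, and the hairpins of all 47 numbers lie on the plus strand of chromosome 12 in GENCODE (GRCm38), within chr12:109563692-109743795, a stretch of 180.1 kb.

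The study compared 8 PS19 mice with 8 WT mice of about 9.6 months, in equal numbers of males and females, with 200 µL of plasma and 1 library per mouse. PS19 mice (genotype PS19+/-, heterozygous) carry human tau (MAPT) with the P301S change, driven by the mouse prion protein (Prnp) promoter on a mixed B6;C3 background, and the WT mice are littermates without it. The promoter is active in neurons and in other tissues as well, so the transgene does not mark a single source of vesicles. The vesicles were precipitated from plasma and not sorted by their tissue of origin, so that fewer vesicles from a tissue and less of a miRNA per vesicle cannot be told apart.

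The Dlk1-Dio3 locus is imprinted. Dlk1, Rtl1 and Dio3 are made from the paternal chromosome, while the maternal chromosome makes the noncoding RNAs Meg3, antisense Rtl1, Rian and Mirg, from which the snoRNAs and a large cluster of miRNAs are processed. These miRNAs are abundant in brain and in the embryo and placenta, and in neurons the Mirg part of the cluster is induced by activity. A mature miRNA recognises its targets mainly through its seed, bases 2 to 8.

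The sequences below are those of the 7 most abundant miRNAs, which carry most of the reads of the cluster, and of the mature miRNAs with a printable sequence that were lower in PS19 mice (RefSeq, GRCm38.p6, 5′ to 3′, plus strand, seed in capitals). A sequence was matched for 64 of the 66 mature entries, and they were 19 to 25 bases long with a median of 22. The abundant miRNAs all have different seeds.
miR-127-3p, chr12:109592888-109592909: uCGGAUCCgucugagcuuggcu
miR-379-5p, chr12:109709065-109709085: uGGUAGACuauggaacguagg
miR-541-5p, chr12:109742422-109742446: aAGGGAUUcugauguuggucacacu
miR-382-5p, chr12:109733781-109733802: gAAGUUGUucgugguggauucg
miR-434-5p, chr12:109594528-109594549: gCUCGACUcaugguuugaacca
miR-434-3p, chr12:109594565-109594586: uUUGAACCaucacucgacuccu
miR-134-5p, chr12:109734145-109734166: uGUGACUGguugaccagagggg
miR-540-3p, chr12:109586122-109586141: aGGUCAGAggucgauccugg
miR-673-3p, chr12:109572044-109572066: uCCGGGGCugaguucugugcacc
miR-409-3p, chr12:109743204-109743225: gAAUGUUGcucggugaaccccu
miR-543-3p, chr12:109717304-109717325: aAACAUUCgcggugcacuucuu
miR-300-3p, chr12:109724363-109724384: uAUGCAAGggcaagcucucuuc
miR-381-3p, chr12:109726870-109726891: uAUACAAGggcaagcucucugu

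miR-381-3p is shown because it is the closest relative of miR-300-3p. Both are 22 bases long and 19 positions are identical, and counted from the 5′ end the differences from miR-381-3p to miR-300-3p are A4G, G21U and U22C, of which the first lies in the seed. Within the cluster, only miR-379-3p with miR-411-3p (seed AUGUAAC) and miR-376b-5p with miR-376c-5p (seed UGGAUAU) shared a seed among the entries with a sequence.

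The hairpin of mir-668 is shown because the precursor entry, and not the mature one, was lower in PS19 mice, and that of mir-434 because both of its arms were abundant. The mature arms are in capitals.
mir-668, chr12:109734732-109734797: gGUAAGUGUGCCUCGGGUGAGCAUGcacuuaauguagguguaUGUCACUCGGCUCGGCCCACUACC
mir-434, chr12:109594506-109594599: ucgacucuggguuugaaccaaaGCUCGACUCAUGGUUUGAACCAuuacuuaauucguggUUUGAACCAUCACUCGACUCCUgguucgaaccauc

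The deposited values are counts scaled by the authors with DESeq2 size factors, here called normalized counts, and the whole reads behind these values could be recovered. Summed over the entries, the libraries held 36220722 to 117583663 reads assigned to ncRNAs, of which 52562 to 2720314 were miRNA reads. A read assigned to several entries would count more than once in these sums. One read was worth 0.389 to 3.83 normalized counts, the highest value being that of PS19 replicate 4, which had the fewest miRNA reads. All 8 PS19 library names begin with G, as do those of 2 WT libraries (replicates 2 and 4), a letter whose meaning the labels do not give and which is thus partly confounded with the genotype. The replicates are different mice.

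The cluster was a small part of pEV miRNAs. It held 36368 reads over the 16 libraries, 12998 in PS19 and 23370 in WT, and mature entries took 97.1% of them. miR-127-3p was the most abundant member, at rank 47 among miRNA entries by mean normalized count, and took 34.2% to 52.6% of the cluster's reads in a library. The 5 most abundant entries together took 80.5% of the reads and the 10 most abundant 89.8%.

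Most of the remaining entries were near the limit of detection. A total of 19 entries were seen in all 16 libraries and 21 in a single library, 42 entries had fewer than 10 reads in all, and 18 had 1 read. Between 31 and 48 entries were seen in a PS19 library and between 39 and 64 in a WT library. Of the 96 entries, 30 could not be told from another ncRNA by their values in the 16 libraries, and none of these had more than 9 reads. A mean normalized count of at least 1 was reached by 44 entries and of at least 10 by 18.

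**Figure D1:**
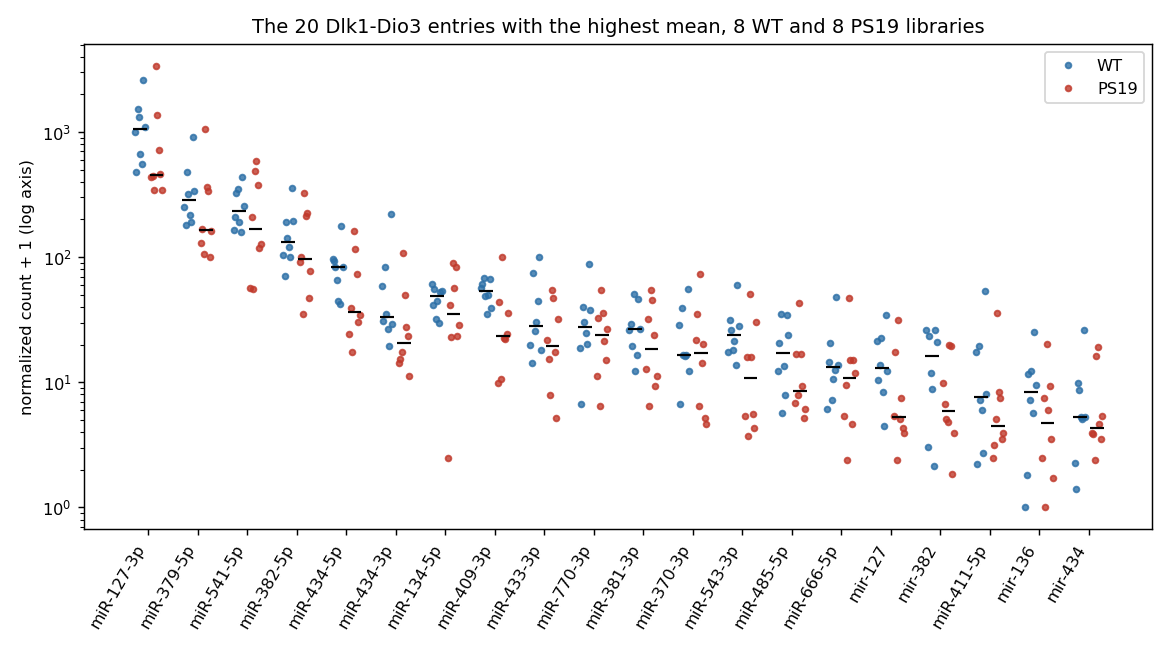
Normalized count + 1 (log axis) of the 20 entries with the highest mean in 8 WT (blue) and 8 PS19 (red) libraries, with each point 1 library and each bar the median. The levels fall from a mean of 1045 for miR-127-3p, and the points of the genotypes overlap for every entry shown.

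In the order of the chromosome, the entries fall into 3 groups. The first group runs from Meg3 to the RNA antisense to Rtl1, with 25 entries of 11 numbers and 54.1% of the reads. The second lies in Rian, with 7 entries and 1.26% of the reads, and the third lies in and before Mirg, with 64 entries of 33 numbers and 44.7%. By annotation, 13 entries lie opposite an exon of Rtl1, 3 in an exon of Meg3, 7 in an intron of Rian, 17 in an exon and 8 in an intron of Mirg, and 48 outside other annotated genes. One miRNA led each group, with miR-127-3p at 80.8% of the reads of the first, miR-370-3p at 75.5% of those in Rian and miR-379-5p at 31.8% of those in the Mirg group.

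The miRNAs opposite Rtl1 are perfectly complementary to its transcript and are known to act against it. miR-127-3p, from the hairpin at chr12:109592846-109592915, ran from 340.9 to 3367 normalized counts in PS19 libraries with a median of 452, and from 482 to 2604 in WT libraries with a median of 1049.6. The highest PS19 value was that of replicate 4 and the highest WT value that of replicate 7, and the groups overlapped. The mean in PS19 was 935 ± 1040.0 (SD, n = 8) and that in WT was 1156 ± 690.4 (SD, n = 8), a log2 difference of -0.61 ± 0.513 (SE, limma, p = 0.245, exact permutation p = 0.239) on the log2(normalized count + 1) scale used throughout, so the difference was within the spread between mice.

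Its neighbour mir-434 gave both arms, 1265 reads of miR-434-5p and 760 of miR-434-3p, or 62.5% from the 5p arm. miR-434-5p ran from 16.5 to 161 (median 35.7) in PS19 and from 41.1 to 177 (median 82.7) in WT. miR-434-3p ran from 10.2 to 107 (median 19.5) in PS19 and from 18.5 to 222 (median 32.0) in WT. The groups overlapped for both arms, and the log2 differences were -0.74 ± 0.504 (limma, p = 0.156, exact permutation p = 0.132) and -0.87 ± 0.558 (limma, p = 0.132, exact permutation p = 0.142), respectively.

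miR-433-3p, next to mir-127, ran from 4.18 to 53.7 (median 18.6) in PS19 and from 13.2 to 99.3 (median 26.9) in WT, with a log2 difference of -0.76 ± 0.558 (limma, p = 0.183, exact permutation p = 0.188). miR-136-5p had 12 reads in 3 PS19 libraries and 50 reads in 7 WT libraries, and its log2 difference of -1.38 ± 0.683 lay just above the threshold (limma, p = 0.0536, exact permutation p = 0.0749). Its other arm, miR-136-3p, had 9 reads, all in PS19 replicate 2. miR-770-3p, the first miRNA of the cluster, in an exon of Meg3, ran from 5.49 to 53.7 (median 22.8) in PS19 and from 5.76 to 87.2 (median 26.5) in WT (log2 difference -0.34 ± 0.540, limma, p = 0.538, exact permutation p = 0.524).

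In the Mirg group, miR-379-5p stands at the start of a dense run of hairpins. It ran from 98.6 to 1051 (median 163) in PS19 and from 181 to 918 (median 284) in WT, with a log2 difference of -0.53 ± 0.511 (limma, p = 0.311, exact permutation p = 0.303). miR-541-5p, from an intron of Mirg, ran from 54.9 to 588 (median 168) in PS19 and from 158 to 435 (median 232) in WT, with a log2 difference of -0.45 ± 0.519 (limma, p = 0.392, exact permutation p = 0.384). For both, the PS19 values enclosed the WT values, and the highest PS19 values were in replicates 4 and 5, respectively.

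miR-134-5p is known in neurons for limiting the growth of dendritic spines through the kinase Limk1. It ran from 1.47 to 88.2 (median 34.2) in PS19 and from 29.0 to 59.6 (median 47.8) in WT, so that the PS19 values enclosed the WT values. Its log2 difference was -0.58 ± 0.578 (limma, p = 0.323, exact permutation p = 0.42). miR-382-5p, from the neighbouring hairpin, ran from 34.3 to 326 (median 95.6) in PS19 and from 69.1 to 358 (median 131) in WT (log2 difference -0.39 ± 0.505, limma, p = 0.442, exact permutation p = 0.418).

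**Figure D2:**
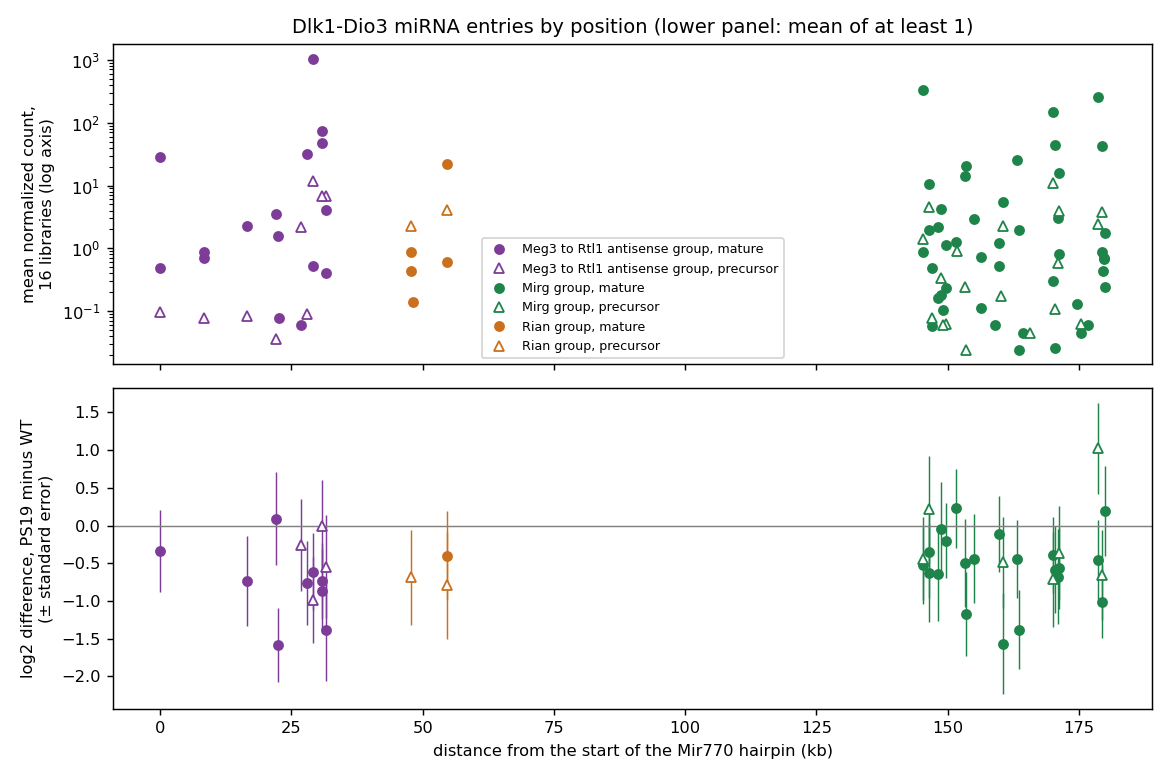
Mean normalized count over 16 libraries (upper panel, log axis) and log2 difference between PS19 and WT with its standard error (lower panel, entries with a mean of at least 1) against the distance of each hairpin from the start of Mir770 in kb. Filled circles are mature and open triangles precursor entries, colours mark the 3 position groups, and most points of the lower panel, which uses size factors, lie below 0, where with miRNA totals 14 of the 18 entries with a mean of at least 10 lie above it.

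A single arm made up most of the reads of most hairpins. Of the 16 hairpins with at least 100 mature reads, 14 had more than 90% of them from 1 arm, and the major arm was the 3p arm in 8 and the 5p arm in 8. The exceptions were mir-434 and mir-411, with 85.3% of the latter's reads from the 5p arm. miR-127 had 15890 reads of the 3p arm and 8 of the 5p arm.

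The precursor entries, which carry the name of the hairpin, held few reads. In 3 of the 27 hairpins with both kinds of entry the precursor entry had more reads than the mature ones, namely mir-136 with 118 against 71, mir-341 with 38 against 13 and mir-431 with 27 against 1. These 3 were named after their values were seen. Whether such reads are precursors or reads that extend past a mature end cannot be read from the counts.

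The question of the comparison was which of these miRNAs differ in abundance between the vesicles of PS19 and WT mice. Of the 96 entries, 7 were lower and 0 higher in PS19 mice at a raw limma p under 0.05, the level the study worked with, which is 7.29% of the members. Among all ncRNAs, 2.13% were lower and 2.72% higher, and among all miRNA entries 5.05% were lower, so the members' share was closer to that of the other miRNAs. After Benjamini-Hochberg adjustment over all ncRNAs 0 members passed, as did 0.0% of all ncRNAs, and the smallest adjusted p of a member was 0.829. A two-sided exact permutation test of the 8 against 8 libraries gave 7 members, all lower, beside 3.96% of all ncRNAs. With each library scaled to its miRNA reads, 4 members were lower and 1, mir-541, was higher at a raw limma p under 0.05, where 0.66% of all ncRNAs were lower and 6.8% higher.

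The other tests of the recovered reads gave different counts. DESeq2 gave 3 members lower (miR-540-3p, miR-300-3p and miR-487b-3p) and 0 higher at a raw p under 0.05, where 1.59% of all ncRNAs were lower, and 0 members after adjustment, which 2.47% of the ncRNAs with an adjusted p passed. The quasi-likelihood test of edgeR gave 8 lower and 1 higher, the latter being miR-136-3p with reads in 1 library. edgeR called 7.26% of all ncRNAs lower and 7.88% higher, so the members' share lower was near that of all ncRNAs. Of the entries called by limma, miR-409-3p, miR-543-3p and miR-673-3p did not pass with edgeR. Its lower entries included miR-434-3p, miR-136-5p and miR-409-5p, which limma did not call. After adjustment edgeR called 2.1% of all ncRNAs and 1 member, miR-487b-3p (adjusted p = 0.00862), which had 17 of its 26 reads in 1 WT library.

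**Figure D3:**
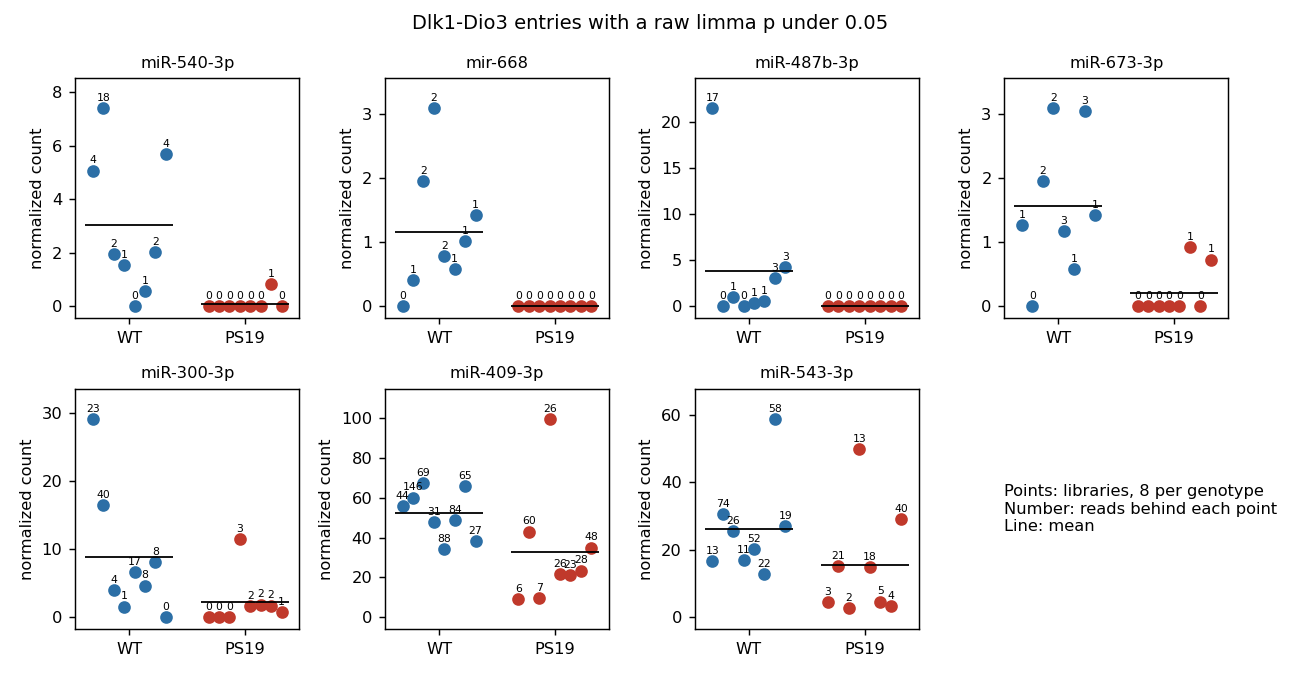
Normalized count of the 7 entries with a raw limma p under 0.05 in 8 WT (blue) and 8 PS19 (red) libraries, with the number of reads beside each point and the mean as a line. For miR-540-3p, mir-668, miR-487b-3p and miR-673-3p no PS19 library had more than 1 read. The genotypes overlapped or met at 0 for all 7 entries.

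Of the 7 entries, 4 were rare ones seen in WT libraries and hardly at all in PS19 libraries. miR-540-3p, from a hairpin between Meg3 and Rtl1, had 1 read in PS19 mice (replicate 7) and 32 reads in 7 of 8 WT mice, of which 18 were in replicate 2. Per unit of summed size factor this was 23.4 times more in WT, with a 95% interval from 3.90 to 951 that covers counting error only. Without WT replicate 2 it was 13.2 times more (2.0 to 556). The log2 difference was -1.59 ± 0.492 (limma, p = 0.00332, exact permutation p = 0.00264), and -1.29 with each library scaled to its miRNA reads. The folds of rare entries given here and below were not computed on that scale.

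mir-668 had 0 reads in PS19 mice and 10 in 7 of 8 WT mice, at 1 or 2 reads each. With 3 reads over the group put in place of 0, a floor chosen here, it was 2.43-fold lower in PS19 (limma, p = 0.00379, exact permutation p = 0.0014). This fold leaves out the counting error of the WT reads. The mature entry of the same hairpin, miR-668-3p, had 11 reads in 5 PS19 and 28 in 7 WT libraries, and its log2 difference was -0.68 ± 0.633 (limma, p = 0.294, exact permutation p = 0.291).

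miR-487b-3p had 0 reads in PS19 mice and 26 in 6 of 8 WT mice, with 17 in replicate 1 and none in the WT libraries whose names begin with G. With the same floor it was 6.32-fold lower in PS19 (limma, p = 0.0134, exact permutation p = 0.00699), and 2.36-fold lower without WT replicate 1. miR-673-3p had 1 read in each of 2 PS19 libraries and 13 reads in 7 WT libraries, a ratio of 4.74 with a counting interval from 1.07 to 43.3 (limma, p = 0.0187, exact permutation p = 0.00435). miR-673-3p did not pass with DESeq2 (p = 0.0959), edgeR (p = 0.0589) or the libraries named with G (limma, p = 0.134). Its other arm, miR-673-5p, had 12 reads, all in replicate 2, in PS19 and 2 in WT, with a log2 difference of 0.18 ± 0.390. The direction of this arm cannot be read from these counts, since all of its PS19 reads lay in 1 library. The difference between the arms was not tested.

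miR-300-3p had 10 reads in 5 PS19 libraries and 101 in 7 WT libraries. In PS19 it ran from 0 to 11.5 with a median of 1.19, the highest value standing for 3 reads of replicate 4, and in WT from 0 to 29.2 with a median of 5.62. The means were 2.17 ± 3.85 (SD, n = 8) and 8.80 ± 9.63 (SD, n = 8), and the log2 difference was -1.57 ± 0.669 (limma, p = 0.0271, exact permutation p = 0.0416). It did not pass the raw limma threshold with each library scaled to its miRNA reads, where the log2 difference was -1.04, nor in 5 of the 16 fits with a library left out, among them those without WT replicate 1 (-1.24) and WT replicate 2 (-1.36). Its relative miR-381-3p, with 172 reads in PS19 and 259 in WT, had a log2 difference of -0.44 ± 0.519 (limma, p = 0.400, exact permutation p = 0.352), and the difference between these effects was not tested.

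The remaining pair were abundant enough to be seen in every library. miR-409-3p ran from 8.82 to 99.7 (median 22.4) in PS19 and from 34.2 to 67.4 (median 52.2) in WT, and its log2 difference was -1.01 ± 0.483 (limma, p = 0.0468, exact permutation p = 0.0264). miR-543-3p ran from 2.74 to 49.9 (median 9.73) in PS19 and from 12.7 to 58.8 (median 22.8) in WT, with a log2 difference of -1.17 ± 0.562 (limma, p = 0.0468, exact permutation p = 0.0496). For both, replicate 4 was the highest PS19 library and replicate 3 the lowest or next to the lowest, and the groups overlapped. With each library scaled to its miRNA reads the log2 differences were -0.16 and -0.37, and neither passed the raw limma threshold.

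The entries next to the threshold, beside miR-136-5p, were miR-369-5p, with 2 reads in PS19 and 9 in WT (limma, p = 0.0604, exact permutation p = 0.0629), and miR-409-5p, with 1 and 12 reads (limma, p = 0.0678, exact permutation p = 0.128). By position, 2 of the 25 entries of the Meg3 to Rtl1 antisense group, 0 of the 7 in Rian and 5 of the 64 in the Mirg group were lower at the raw threshold, beside 2.13% of all ncRNAs and 5.05% of all miRNA entries.

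Of the 7 calls, 4 held with any single library left out and 3 did not. miR-540-3p, mir-668, miR-487b-3p and miR-673-3p stayed under a raw p of 0.05 with each of the 16 libraries left out in turn, miR-300-3p in 11 of the 16 fits, miR-543-3p in 7 and miR-409-3p in 5. The number of members called ran from 4 without PS19 replicate 3 (1.9% of all ncRNAs lower) to 12 without PS19 replicate 4 (2.18%), where miR-127-3p, at a log2 difference of -0.95, miR-434-5p and miR-434-3p were also lower. Against the 2 WT libraries whose names begin with G, 3 of 79 entries were lower, namely miR-540-3p at a log2 difference of -2.10, mir-668 at -1.26 and miR-369-5p at -1.27. In the same fit 3.62% of all ncRNAs were lower, a share close to that of the members.

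Most members had a value below 0, but so did most other miRNAs. Of the 96 entries, 72 had a negative and 24 a positive log2 difference, with a median of -0.19 beside -0.01 for all ncRNAs and -0.20 for all miRNA entries. Of the 18 entries with a mean of at least 10, 18 were negative, from -1.17 to -0.34 with a median of -0.60, but with each library scaled to its miRNA reads 4 were negative and 14 positive, with a median of 0.23. Of all 294 miRNA entries at that level, 263 were negative, with a median of -0.65, and 96 with the miRNA scaling, with a median of 0.19. That scaling moved the median of the 96 members to 0.048 and that of all ncRNAs to 0.29. The direction of the abundant members thus depends on whether they are set against all ncRNAs or against other miRNAs. It also depends in part on the libraries used. With those named with G, 11 of the 18 entries were negative and 7 positive, with a median of -0.22. In the same fit 241 of the 294 miRNA entries were negative, with a median of -0.89.

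**Figure D4:**
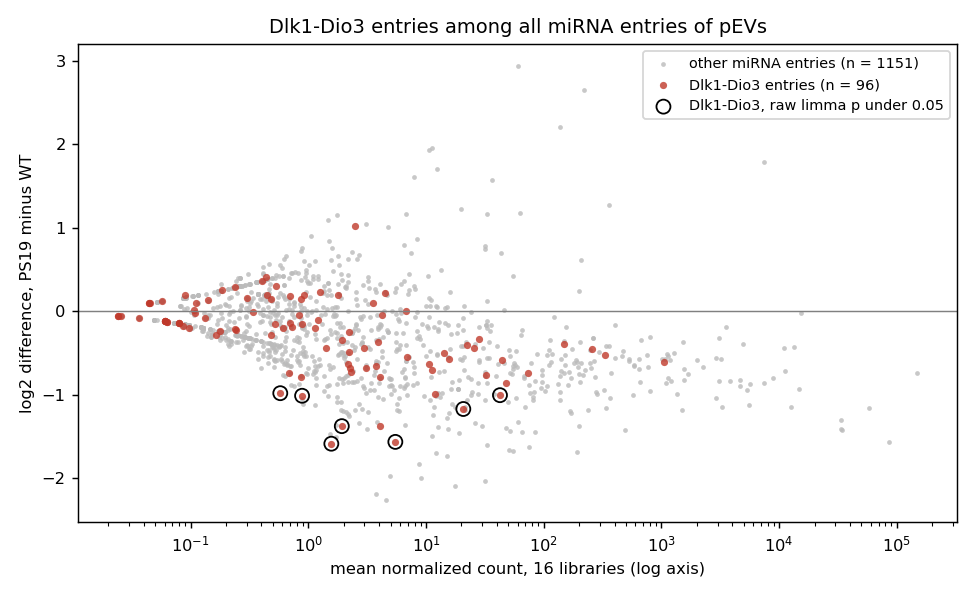
Log2 difference between PS19 and WT against the mean normalized count over 16 libraries (log axis) for 96 Dlk1-Dio3 entries (red) and 1151 other miRNA entries (grey), with circles around the 7 entries with a raw limma p under 0.05. The members lie within the cloud of the other miRNAs, and of all 294 miRNA entries with a mean of at least 10, members included, 263 are below 0 with size factors, as drawn, and 96 with miRNA totals.

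As a share of miRNA reads the cluster was not lower in PS19 mice. It ran from 0.133% to 3.18% in PS19 libraries with a median of 0.326%, and from 0.121% to 0.825% in WT libraries with a median of 0.323%. The means were 0.707% ± 1.02 (SD, n = 8) and 0.384% ± 0.243 (SD, n = 8), a difference of 0.323 percentage points that turned to -0.0294 without PS19 replicate 4. In that library the cluster held 3.18% of 52562 miRNA reads (95% Wilson interval 3.03% to 3.33%, counting error only).

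The summed normalized counts of the cluster ran from 669 to 6400.5 in PS19 (median 1134) and from 1309 to 5598 in WT (median 2253). PS19 replicate 4 and WT replicate 7 were the highest libraries of their groups, and they held the highest value of 7 and 9, respectively, of the 18 entries with a mean of at least 10. PS19 replicate 3 was the lowest, and the groups overlapped.

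Of the marker miRNAs of other sources, those of neurons, taken as a sum, were highest in the libraries where the cluster was highest. The same 2 libraries, PS19 replicate 4 and WT replicate 7, were the highest in the neuron miRNAs miR-124-3p, miR-9-5p and miR-128-3p, and the sum of these with miR-138-5p was 10025 in PS19 replicate 4 and 10423 in WT replicate 7, against 982 to 5408 in the other libraries. All 4 neuron miRNAs were listed. Over the genotypes this sum ran from 982 to 10025 in PS19 (median 2704) and from 2208 to 10423 in WT (median 3443).

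The markers of other sources did not share this pattern in both libraries. PS19 replicate 4 was the lowest library in red cell and muscle miRNAs, whereas WT replicate 7 ranked 2 or 3 of 16 in each of the 4 red cell miRNAs and 4 in miR-126a-3p. The red cell miRNAs (4 of 4 listed) ran from 1952 to 44873 in PS19 (median 33012) and from 17302 to 94866 in WT (median 38492). The liver miRNAs (3 of 3) ran from 8502 to 211904 in PS19 (median 27570) and from 26564 to 386443 in WT (median 105776). The muscle miRNAs (3 of 3) ran from 1733 to 94150 in PS19 (median 10484) and from 4513 to 64139 in WT (median 7191).

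The platelet and myeloid miRNAs (3 of 3) ran from 548 to 2265 in PS19 (median 1421) and from 1436 to 3342 in WT (median 1919). Of the 17 marker miRNAs, 2 were lower in PS19 at a raw limma p under 0.05, namely miR-486a-5p of red cells (log2 difference -1.41, exact permutation p = 0.0791) and miR-122-5p of liver (-1.57, exact permutation p = 0.0805), and 1 was higher, miR-206-3p of muscle (1.79, exact permutation p = 0.0903), beside the 2.13% lower and 2.72% higher among all ncRNAs. None of these 3 passed the exact permutation test at 0.05, which miR-126a-3p of the platelet and myeloid list did (log2 difference -0.75, exact permutation p = 0.0169). The part of these sources in the differences between PS19 and WT was not tested. Without PS19 replicate 4 and WT replicate 7, a choice made after these values were seen, 7 of 92 members were lower at a raw p under 0.05, beside 1.89% of all ncRNAs.

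**Figure D5:**
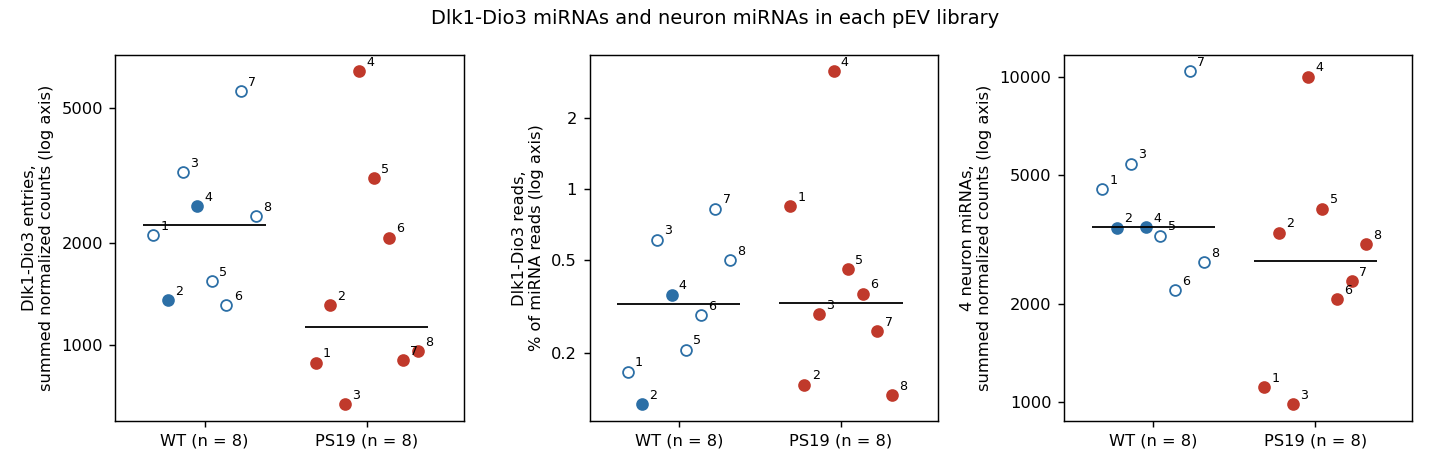
Summed normalized counts of the cluster (left), its share of miRNA reads (middle) and summed normalized counts of 4 neuron miRNAs (right) in each library, on log axes, with replicate numbers beside the points and medians as lines. Filled points are libraries whose names begin with G, and PS19 replicate 4 and WT replicate 7 are the highest of their genotype in the left and right panels.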

How the data were processed

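The data are small RNA libraries of plasma EVs, 8 from PS19 and 8 from WT mice. Per the submitters' processing notes and the study's methods, the authors aligned the reads to mm10 with STAR 2.5.3a, assigned them to ncRNAs with COMPSRA and used DESeq2 1.42.1. The deposited signal of each library is the count divided by the DESeq2 size factor. The deposited table also holds the authors' own comparison (mean, log2 fold change, standard error, statistic, p-value and adjusted p-value), which was not used.

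The lowest value above 0 in a library was taken as 1 read and the others were divided by it, which gave whole numbers for 100% of values, within 1e-06 of a read. log2(normalized count + 1) was tested over all 15159 ncRNAs with limma 3.58.1 (eBayes with a trend) at a raw p of 0.05, with Benjamini-Hochberg adjustment, and with a two-sided exact permutation test of each ncRNA over 12870 assignments. The scale understates differences of rare miRNAs. Folds against 0 reads use 3 reads over the group, as pooled reads per summed size factor. Alternatives were DESeq2 1.42.0 and edgeR 4.0.16 on the recovered reads, scaling to library or miRNA totals, filters at a mean of 1 or 10, 0.1 as the pseudocount, robust fits with weights for each library, a replicate block, leaving out 1 library at a time, libraries named with G, libraries with at least 50% of the median total, 1 entry per identical set and mature entries only. R 4.3.3, Python 3.11.15, pandas 2.3.3 and scipy 1.17.1 were used, and the fits were tested on simulated data.

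The members, position groups and lists were chosen with earlier results of these data known. Entries named are those with a raw limma p under 0.05, the 10 with the highest mean, the 3 with the next p, and their other arms and precursors. Others were named after their values were seen. Positions are from GENCODE vM21 and sequences from RefSeq. Counts of different miRNAs also reflect how well each is ligated and assigned, so levels were not tested between miRNAs.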

Additional observations from a re-analysis of the deposited data

Results flagged for a closer look

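Of 40 groups of 8 libraries examined, 6 held a library that stood apart by Dixon's test (critical value 0.526), where chance gives about 1 in 20 groups of spread values. That rate does not hold for the 3 rare miRNAs named last, whose other libraries are all at 0. In PS19 mice, replicate 4 was the highest for miR-300-3p at 11.5 normalized counts (3 reads), against 0 to 1.84 in the others. The same library was the highest in the share of the cluster among miRNA reads, at 3.18% against 0.133% to 0.846%. PS19 replicate 1 was the lowest for miR-134-5p at 1.47 (1 read), against 21.9 to 88.2 in the others. For 3 rare miRNAs a single PS19 library had reads, namely replicate 7 for miR-540-3p at 0.836, replicate 5 for miR-369-5p at 1.65 and replicate 5 for miR-409-5p at 0.825, and the others were at 0.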

How the results depend on the processing

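The 7 members lower in PS19 became 3 of 96 with DESeq2 (1.59% of all ncRNAs lower), 4 of 44 at a mean of at least 1 (2.51%), 2 of 18 at a mean of at least 10 (2.25%) and 3 of 79 with the libraries named with G (3.62%), and 4 to 12 with each library left out in turn (1.71% to 2.47%), with 1 entry higher without PS19 replicate 8. Under the other alternatives the count of lower members was 4 (miRNA totals) to 9, with 1 entry higher in PS19 under edgeR and under miRNA totals, and 0.66% (miRNA totals) to 7.26% (edgeR) of all ncRNAs lower. With a replicate block it was 5, and since each number stands for 1 PS19 and 1 WT mouse that the labels do not tie together and the correlations of same-numbered libraries ran from -0.18 to 0.47, the numbers do not pair them. The median log2 difference of the members turned from -0.19 to 0.048 with miRNA totals and to 0.12 with the libraries named with G, where the median of all ncRNAs was 0.29 and 0.16, and with library totals the median of all ncRNAs was -0.11. Named entries outside the 7 that turned positive with miRNA totals were miR-127-3p (0.27), miR-379-5p (0.35), miR-541-5p (0.43), miR-382-5p (0.48), miR-434-5p (0.13), miR-134-5p (0.22), miR-433-3p (0.070) and miR-770-3p (0.48), and with the libraries named with G miR-382-5p (0.11), miR-433-3p (0.020), miR-770-3p (0.56) and miR-136-5p (0.62). The cause was not tested. The difference in the share of miRNA reads ran from -0.0294 to 0.405 percentage points with each library left out, the lowest being that without PS19 replicate 4. miR-540-3p stayed below a raw p of 0.05 under every alternative that gave it a value, and miR-487b-3p likewise, which had no reads in the libraries named with G. mir-668 passed under all but DESeq2 of the alternatives that gave it a value, which the filters at a mean of 1 and 10 did not. Over all alternatives, miR-409-3p lost its call in 21, miR-543-3p in 18, miR-300-3p in 8 and miR-673-3p in 3. Named entries outside the 7 also gained a call, miR-136-5p in 13, miR-409-5p in 7, miR-369-5p in 5, miR-434-3p in 2, and miR-127-3p and miR-434-5p in 1 each. For 42 entries with under 10 reads, differences are hardly detectable at this depth.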

Other observations

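Among the miRNAs of other imprinted loci, 9 entries were listed and 1 passed the raw limma threshold of 0.05, with a lower level in PS19, beside 2.13% lower among all ncRNAs and 5.05% among miRNA entries. This was miR-335-3p, from an intron of the imprinted Mest gene, with 53 reads in PS19 and 291 in WT, means of 7.76 and 27.3 normalized counts and a log2 difference of -2.10 ± 0.547 (limma, p = 0.000693, exact permutation p = 0.000777). The other arm, miR-335-5p, had 23 and 20 reads and a log2 difference of -0.52 ± 0.600 (limma, p = 0.391, exact permutation p = 0.452). miR-296-3p and miR-298-5p, from the Gnas locus, had log2 differences of -0.97 (exact permutation p = 0.194) and -0.94 (exact permutation p = 0.188). No entry carried a name of Snord112 to Snord114. Of the 23 snoRNA genes annotated within the Dlk1-Dio3 locus, an addition made after the names were seen, 13 were listed with 718 reads in all. With limma, 0 of these passed the raw threshold, and their median log2 difference was -0.56 beside -0.01 for all ncRNAs. The paper reported more snoRNAs lower than higher in PS19 pEVs, and the median of all snoRNAs was not computed here. By the exact permutation test 1 of the 13 passed at 0.05, beside 3.96% of all ncRNAs. This was Gm25854, with 1 read in PS19 and 13 in WT (log2 difference -0.80 ± 0.408, exact permutation p = 0.0443).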
